A study of Homo sapiens with 2 samples.

Results

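The 5′ external transcribed spacer (5′ETS) is the leading part of the ribosomal RNA precursor (pre-rRNA), and the reads on it were compared between a Ku80 purification and its vector control. Ku80 forms with Ku70 the DNA end-binding part of DNA-PK, and the study asked which RNA the complex touches in the nucleolus. The 5′ETS was taken as the bins of the deposited ribosomal DNA (rDNA) signal whose names begin with 5ETS. These are 366 of the 4484 bins of the repeat, each 10 bases long, and they cover bases 1 to 3660 counted from the start of the spacer. The samples were 2 PAR-CLIP libraries of HEK293T, an established human embryonic kidney cell line. One came from cells stably expressing SFB-Ku80, that is Ku80 with an SBP tag and tandem FLAG tags, and the other from cells with the SFB empty vector, which still have their own Ku80. Both received 0.1 mM of 6-thioguanosine (6SG), a photoreactive stand-in for guanosine, and 0.4 J/cm2 of UV at 365 nm, and RNA was taken over streptavidin and Flag resins. They are called SFB-Ku80 and the vector library. With a single library for each, no difference given here has a replicate check or a p-value.

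RNA polymerase I transcribes the 5′ETS together with 18S, 5.8S and 28S rRNA in one long precursor. No part of the 5′ETS is kept in the ribosome. While it is still attached it serves as a platform on which the U3 snoRNP and other factors assemble, and it is then removed by successive cleavages. The earliest of them, at the A′ site, cuts off a leader at the 5′ end, and a later one frees the 5′ end of 18S. Reads on the 5′ETS therefore come from precursor RNA or its cleaved fragments, while reads on 18S, 5.8S and 28S come from precursor and mature rRNA alike.

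The spacer exists in many copies. In the CHM13 v1.1 annotation that the authors used, 218 features of 45S length enclose 1 feature of 18S length on the same strand, all on the plus strand. Their 5′ETS is 3638 to 3666 bases long, with a median of 3640. There are 76 copies on chromosome 13, 16 on chromosome 14, 49 on chromosome 15, 56 on chromosome 21 and 21 on chromosome 22. The first on chromosome 13 runs from 5774303 to 5777957. The bin signal is given along a single repeat and is not split by copy. Whether reads can be told apart between copies was not tested.

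In RefSeq on GRCh38.p14, a pair of miRNA genes lies inside the 5′ETS of named 45S copies. MIR10396B is shown because it gives the letters of a stretch of the spacer. MIR10396B covers bases 3103 to 3153 of RNA45SN1, and MIR3648-1 covers bases 2486 to 2665 of RNA45SN2. The 5′ETS of these copies is 3654 and 3643 bases long, so a place in the bins may be off by a bin or more. The hairpin of MIR10396B, at chr21:8436324-8436374 on the plus strand, is printed with both mature arms in capitals. The mature hsa-miR-3648 is the one listed for the other copy of the gene, MIR3648-2, at chr21:8987026-8987046 on the plus strand, with its seed (bases 2 to 8) in capitals. Its letters were not placed in the bins.
MIR10396B: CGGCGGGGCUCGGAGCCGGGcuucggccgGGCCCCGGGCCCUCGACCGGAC
hsa-miR-3648: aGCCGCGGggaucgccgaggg
Of the 51 bases of the MIR10396B hairpin 86.3% were G or C and 45.1% were G, the base that 6SG replaces. Of the 21 bases of hsa-miR-3648, 81.0% were G or C and 52.4% were G.

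The signal is the number of BLAST-aligned reads over a bin. Each read is counted in all the bins it spans, so that neighbours have reads in common. The SFB-Ku80 library had 22173753 read pairs, of which 47.1% were unmapped, and the vector library had 29863974, of which 21.5% were unmapped. Signals were divided by these totals and are given as reads per 1000000 read pairs (RPM), and a ratio is the value of SFB-Ku80 over that of the vector library. Intervals are 95% log-normal intervals for counting error only. They are too narrow for sums of bins, and no molecular identifiers are stated, so PCR copies of one molecule count as separate reads.

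The 5′ETS signal was higher in SFB-Ku80 over its whole length. Its bins held 17 to 63012 reads in SFB-Ku80, with a median of 18584, and 0 to 14185 in the vector library, with a median of 3362. The mean bin stood at 864 RPM in SFB-Ku80 and at 118 in the vector library, a ratio of 7.35 (7.33 to 7.36). At least 1000 reads lay on 333 bins in SFB-Ku80 and on 257 in the vector library. With 1 read added to each count, 360 of the 366 bins had a ratio of at least 4, against 31.1% of the 2176 bins of the repeat with at least 10 reads over both libraries. All 366 had a ratio of at least 2, against 46.4% of those bins. The 366 bins are themselves part of these backgrounds. A ratio of at least 2 was not particular to the 5′ETS. It was reached by 100% of the bins of 18S, 5.8S, ITS1 and ITS2 and by 97.3% of the 3′ETS. In 28S 25.7% of the bins reached it. The intergenic spacer, with 842 of the 2176 bins, had 6.18%. The size of the ratio depends on what the libraries are divided by. It was 10.9 per mapped pair and 22.9 per uniquely assigned pair. The uniquely assigned pairs, 1443251 in SFB-Ku80 and 6062669 in the vector library, leave out unmapped, multimapping, ambiguous and unassigned pairs. Multimapping pairs were 27.0% of the pairs in SFB-Ku80 and 25.1% in the vector library. Relative to the whole rDNA signal the ratio was 3.21, with 40 bins at 4 or more. Relative to 18S it was 2.64, with 18 bins, and relative to 28S it was 4.01, with 226 bins. A ratio per read pair says nothing of how much RNA each purification gave. The bin ratios per read pair had a median of 7.81 and quartiles of 6.75 and 8.38. This spread is one along the spacer within 1 pair of libraries, not one between replicates.

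Both libraries showed a nearly empty leader and an abrupt edge behind it. The place of the edge was chosen after the profile had been seen, as the largest rise between the means of 5 bins on each side, with a mean of at least 100 reads before it. In SFB-Ku80 it lay between bases 440 and 441, where the mean went from 856 to 8644 reads per bin, a factor of 10.1. In the vector library it lay 1 bin earlier, between 430 and 431, where the mean went from 132 to 2247, a factor of 17.0. The size of the factor depends on the width of the window, but 3 and 10 bins on each side gave the same edges. The position of the A′ site is not given in the sources used here, and whether the edge is that site was not tested.

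The leader made up 0.494% of the 5′ETS signal in SFB-Ku80 and 0.562% in the vector library, each cut at its own edge. Over bases 1 to 440 the mean was 35.5 RPM in SFB-Ku80 and 5.86 in the vector library, a ratio of 6.07 (5.92 to 6.22). From base 441 on the means were 977 and 133, a ratio of 7.35 (7.34 to 7.37). The lowest bins of SFB-Ku80 were the first of the leader. Bases 1 to 10 had 17 reads in SFB-Ku80 and 0 in the vector library. A count of 0 allows up to 3 reads, against which the 17 reads were 7.63 times higher per read pair. This value takes no account of counting error in the 17 reads. Bases 11 to 20 had 56 and 2 reads, a ratio of 37.7 with an interval from 9.20 to 155, and bases 21 to 30 had 163 and 28 reads, a ratio of 7.84 (5.25 to 11.7). The high ratios at the very start thus rest on a few reads of the control.

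Upstream of base 1, in the part of the intergenic spacer that holds the promoter, there was almost no signal. The last 10 bins that both libraries list before base 1, 44721 to 44820 of the repeat, together held 60 reads in SFB-Ku80 and 7 in the vector library. Per read pair their ratio was 11.5 (5.28 to 25.3), so a high ratio was not confined to the 5′ETS, though it rests on few reads here. Their mean of 6.00 reads per bin in SFB-Ku80 compares with 440 in the first 10 bins of the 5′ETS, a factor of 73.3. In the vector library the means were 0.700 and 106, a factor of 151. In the vector library these reads lie on the later of the 10 bins, since its first 2 bins held 0 and 2 reads, as given above.

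**Figure D1:**
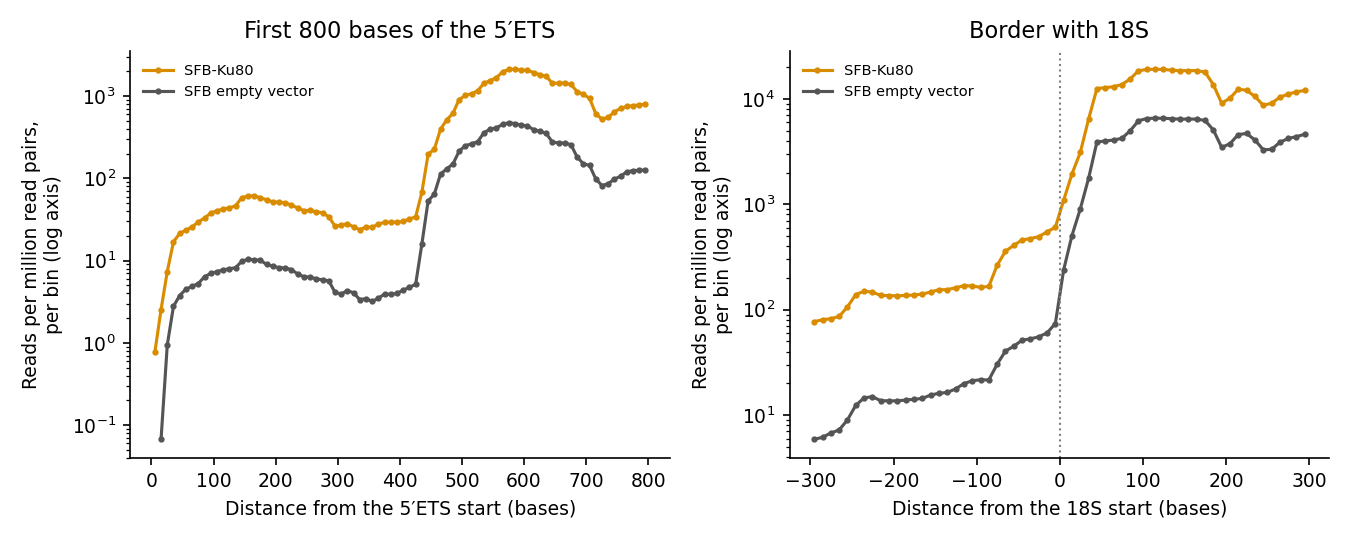
RPM per bin (log axes) for SFB-Ku80 (orange) and the vector library (grey), over the first 800 bases of the 5′ETS (left, distance from its start; the bin with 0 reads is left out) and over 300 bases on each side of the 18S start (right, dotted line). Both libraries step up behind the leader, by factors of 10.1 and 17.0, and climb at the start of 18S.

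Behind the edge the signal formed a series of peaks. Local maxima were taken as bins that are the highest within 10 bins on each side and at or above the library's median bin. There were 7 in SFB-Ku80 and 6 in the vector library, and 12 and 9 where 5 bins on each side were asked for. All 6 of the vector library lay within 50 bases of one of SFB-Ku80, and 4 were in the same bin. The log2 signals of the libraries correlated over the 366 bins with a Pearson r of 0.985 and a Spearman rho of 0.978. This is a description without a p-value, since neighbouring bins share reads and both profiles share the underlying sequence.

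The highest bin of SFB-Ku80 was 1071 to 1080, with 63012 reads in SFB-Ku80 and 10060 in the vector library, or 2842 and 337 RPM, a ratio of 8.44 (8.26 to 8.62). The next highest local maximum, at 1391 to 1400, had 55759 and 8798 reads, a ratio of 8.54 (8.35 to 8.73). Both bins were local maxima of the vector library too. The maximum at 581 to 590 had 47059 reads in SFB-Ku80 and 13841 in the vector library, a ratio of 4.58 (4.49 to 4.67). It ranked 18 among the bins of SFB-Ku80 and 2 among those of the vector library.

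The maximum at 2131 to 2140 had 40204 reads in SFB-Ku80 and 6519 in the vector library, a ratio of 8.31 (8.09 to 8.53), and the vector library peaked 50 bases before it. At 1811 to 1820 there were 30311 and 5054 reads, a ratio of 8.08 (7.84 to 8.32), and at 2571 to 2580 there were 27001 and 5385, a ratio of 6.75 (6.56 to 6.95). The last peak, at 2831 to 2840, had 20258 and 3215 reads, a ratio of 8.49 (8.18 to 8.81). In the vector library that bin was also the highest within 10 bins on each side, but it is below the library's median bin of 3362 reads and so was not counted. Of the 7 peaks of SFB-Ku80, the first one along the spacer thus had the lowest ratio.

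The order of the highest peaks was turned around between the libraries. The highest bin of the vector library was 571 to 580, with 14185 reads in the vector library and 46837 in SFB-Ku80, a ratio of 4.45 (4.36 to 4.53). The bin at 1071 to 1080 had 1.35 times the reads of this bin in SFB-Ku80 (1.33 to 1.36) and 0.709 times in the vector library (0.691 to 0.728). Between the libraries these relations differed by a factor of 1.90 (1.84 to 1.95). This factor does not depend on what the libraries are divided by, but it has no replicate behind it.

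The ratio was not even along the spacer, and its low values lay together. The 21 bins with a ratio under 5 formed 1 unbroken stretch from base 431 to 640, which runs from the edge through the first peak. This stretch had 1271 RPM per bin in SFB-Ku80 and 290 in the vector library, a ratio of 4.39 (4.36 to 4.41). The 6 bins with a ratio below 4 lay inside it. The lowest were 451 to 460, with 5009 and 1923 reads and a ratio of 3.51 (3.33 to 3.70), 461 to 470, with 8757 and 3356 reads and a ratio of 3.51 (3.38 to 3.66), and 441 to 450, with 4343 and 1577 reads and a ratio of 3.71 (3.50 to 3.93). These limits of 5 and 10 were set after the profile had been seen.

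The highest ratios lay in bins below the median 5′ETS bin of each library. Low signal did not by itself go with a high ratio, since the median bin ratio over bases 1 to 440 was 6.28. Of the 23 bins with a ratio of 10 or more, 2 were at the start of the leader, 5 formed a stretch from 2731 to 2780 and 16 a stretch from 3271 to 3430. The first stretch held 6582 to 15895 reads per bin in SFB-Ku80 and 794 to 2138 in the vector library, a ratio of 10.7 (10.4 to 11.0). The second held 1571 to 3318 and 131 to 435 reads per bin, a ratio of 13.0 (12.5 to 13.4). Its bin at 3311 to 3320 had the highest ratio outside the leader, with 1815 reads in SFB-Ku80 and 131 in the vector library, 18.7 (15.6 to 22.3). Of the remaining bins, 322 had a ratio from 5 to under 10.

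In consecutive blocks of 500 bases, the first 2 blocks held a smaller share of the 5′ETS signal in SFB-Ku80 than in the vector library, and each later block a larger one. Bases 501 to 1000 held 19.5% of the 5′ETS signal of SFB-Ku80 and 25.2% of that of the vector library. Bases 1001 to 1500 held 30.5% and 26.8%, 1501 to 2000 held 15.9% and 14.6%, and 2001 to 2500 held 19.0% and 18%. Most of the signal lay on the middle of the spacer in both.

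The ends were poor in signal in both libraries. Bases 1 to 500 held 1.40% in SFB-Ku80 and 2.28% in the vector library, bases 3001 to 3500 held 2.02% and 1.77%, and the remaining 16 bins held 1.55% and 1.30%. Bases 2501 to 3000 held 10.1% and 10.01%. The ratio was 4.51 in the first block and 5.69 in the second, and from the third block on it was between 7.44 and 8.74.

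The running sum from the 5′ end passed 50% of the 5′ETS signal at bases 1461 to 1470 in SFB-Ku80 and 1401 to 1410 in the vector library. It passed 25% at 1051 to 1060 and 941 to 950, and 75% at 2151 to 2160 and 2131 to 2140. The first 1500 bases held 51.4% of the signal in SFB-Ku80 and 54.3% in the vector library. The signal of SFB-Ku80 was thus placed slightly further from the 5′ end, by 110 bases at most among these 3 marks.

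Few places broke the smooth course of the profile. Between neighbouring bins the count changed by a median factor of 1.06 in both libraries. A change of at least 1.5, among pairs with at least 100 reads in one of the bins, was found at 10 borders in SFB-Ku80 and at 8 in the vector library, and 5 were shared. This limit was set after the profile had been seen. Of the shared ones, 3 belong to the edge behind the leader, after bases 430, 440 and 460.

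The other shared changes were falls. After base 1170, behind the highest peak, the signal went from 41329 to 25182 reads in SFB-Ku80 and from 6787 to 4360 in the vector library. After base 2980 it went from 3256 to 1125 reads in SFB-Ku80, and from 782 to 215 in the vector library. From 2921 to 3590 each bin of SFB-Ku80 was under 0.1 of its highest bin, and in the vector library this held from 2921 to 3610. The mean over bases 2921 to 3590 was 138 RPM in SFB-Ku80 and 17.4 in the vector library. Both values are above those of the leader and far below those of the peaks.

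Towards 18S the signal climbed over several bins. The last 10 bins of the 5′ETS had a mean of 8726 reads in SFB-Ku80 and the first 10 bins of 18S one of 218283, a factor of 25.02. In the vector library the means were 1352 and 91853, a factor of 67.9. The factor is set by the width of the window, and was 9.73 and 24.9 with 5 bins on each side and 49.7 and 148 with 20. The last bin, 3651 to 3660, had 13425 and 2206 reads, a ratio of 8.20 (7.84 to 8.57), and the 18S bin next to it had 24191 and 7128, a ratio of 4.57 (4.45 to 4.69). Over the 10 bins on each side of the border the ratio was 8.69 (8.54 to 8.85) in the 5′ETS and 3.20 (3.19 to 3.21) in 18S. Reads that span the border count on both sides.

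The bins of MIR10396B and MIR3648-1 had ratios slightly below the 7.35 of the whole spacer. The letters of MIR3648-1 itself are not printed above. Over MIR10396B, in the bins from 3101 to 3160, there were 3381 to 5071 reads per bin in SFB-Ku80 and 681 to 1001 in the vector library, a ratio of 6.74 (6.54 to 6.95). Over MIR3648-1, in the bins from 2481 to 2670, there were 14298 to 27001 and 2875 to 5385, a ratio of 6.77 (6.71 to 6.82), and the local maximum at 2571 to 2580 lies among them. The signal covers the precursor as a whole and cannot tell a miRNA or its hairpin from pre-rRNA.

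Against the mature regions of the transcript, 18S, 5.8S and 28S, the 5′ETS was high in ratio and low in level. Of all 45S bins 27.4% are 5′ETS bins, and they held 5.02% of what lay on 45S in SFB-Ku80 and 1.56% in the vector library. The mean 18S bin had 14.8 times the reads of the mean 5′ETS bin in SFB-Ku80 and 39.1 times in the vector library. Of the signal on the spacers of the transcript, the 5′ETS held 69.9% in SFB-Ku80 and 66.1% in the vector library. These are sums over bins, and the 5′ETS has 366 bins against 108 in ITS1, 117 in ITS2 and 37 in the 3′ETS.

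The other spacers also had ratios above those of the mature regions, with lower medians than the 5′ETS. The median bin ratio was 7.81 in the 5′ETS, 6.85 in ITS1, 5.76 in ITS2 and 6.74 in the 3′ETS, and bins with a ratio of at least 4 were 98.4% of the 5′ETS bins, 99.1% of those of ITS1, 100% of ITS2 and 97.3% of the 3′ETS. The quartiles of ITS1, 5.64 and 7.86, and of the 3′ETS, 6.52 and 7.37, overlap those of the 5′ETS, while those of ITS2, 4.93 and 6.27, lie below them. The ratio of the summed signal was 7.35 in the 5′ETS, 7.16 in ITS1, 5.79 in ITS2 and 4.87 in the 3′ETS. In level the spacers differed, with a mean bin of SFB-Ku80 at 864 RPM in the 5′ETS, 787 in ITS2, 392 in ITS1 and 38.7 in the 3′ETS. In the vector library ITS2 came first, at 136 RPM, followed by the 5′ETS at 118, ITS1 at 54.8 and the 3′ETS at 7.95. The mature regions had lower median ratios, 2.78 in 18S, 3.50 in 5.8S and 1.82 in 28S, and 3 of the 186 bins of 18S and 2 of the 505 of 28S reached 4. With 1 library per condition none of these differences between regions could be tested, and whether the larger share of unmapped pairs in SFB-Ku80 moves with them was not tested.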

How the data were processed

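PAR-CLIP reads of 2 HEK293T libraries were used. The authors deposited a signal, the number of reads aligned by BLAST over each 10-base bin of an rDNA repeat, unscaled. BLAST's version and limits and the rDNA sequence are not given in the sources used here. The authors also deposited counts of read pairs per feature from STAR (2.7.6a in the submitters' processing notes), whose total, with the rows of unmapped, multimapping, unassigned and ambiguous pairs, was the denominator, and counts from featureCounts 2.0.2 on CHM13 v1.1, used for an alternative denominator and for feature positions. SFB-Ku80 lists 2 bins fewer, at the end of the repeat. Python 3.11.15 with pandas 2.3.3 and scipy 1.17.1 gave ratios per read pair, with 1 read added for counts of bins past a ratio and for r, and none added for ratios printed with an interval. A ratio of at least 4 or 2 was counted among bins with at least 10 reads over both libraries. Bins were named as up to 8 local maxima of SFB-Ku80, 3 bins each of least signal, highest ratio and lowest ratio, and those at the borders. The bins, rules and limits were chosen with earlier results of these data known. Scripts were tested on simulated data. 5′ETS copies were features within 1% of RefSeq 45S lengths that enclose 1 feature of 18S length. Base composition along the spacer was not analysed here.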

Additional observations from a re-analysis of the deposited data

How the results depend on the processing

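No paired analysis was possible because there was only 1 library for each of SFB-Ku80 and SFB empty vector. The direction of the 5′ETS ratio held under every setting run, and its size depended on the denominator. It was 10.9 per mapped pair, 22.9 per uniquely mapped assigned pair and 6.03 per featureCounts total. The assigned total leaves out unmapped, multimapping, ambiguous and unassigned pairs. The ratio was 3.21 against the rDNA signal, 2.64 against 18S and 4.01 against 28S. As the median of bins it was 7.81, and without the 10% of bins highest in SFB-Ku80 it was 7.30. Bins at least 4 times higher numbered 360 as reported, 40 against the rDNA signal, 18 against 18S and 226 against 28S, which follows from the lower ratio, and were 348 to 366 otherwise. Values that follow are for SFB-Ku80 and then SFB empty vector. The share in the first 1500 bases was 52.0% and 54.8% without 10 bins at each end. It was 34.8% and 39.0% without the 10% of bins highest in SFB-Ku80, the same bins being left out of both libraries. The first 1000 bases held 20.9% and 27.5%, and the first 2000 held 67.3% and 68.9%. There were 12 and 9 local maxima with 5 bins on each side. The step into 18S was 9.73 and 24.9 with 5 bins on each side, and 49.7 and 148 with 20. The 5′ETS share of 45S was 2.41% and 0.941% by mean per bin of each region and 5.02% and 1.56% without the highest bin of each region, and for SFB-Ku80 it was 5.03% without the outermost bins. The correlation was 0.978 by Spearman, 0.988 over blocks and 0.984 without 10 bins at each end. The step behind the leader, with windows chosen after the data had been seen, was 6.11 and 9.33 with 3 bins on each side and 22.9 and 38.8 with 10. For all of these moves the cause was not tested. Counting error is small in most bins, and the lack of replicates limits every comparison.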
